A study of Homo sapiens with 32 samples.

Results

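The genes described here are 38 targets of the transcription factor NRF2 and antioxidant enzymes, given as a list of gene symbols, out of 35587 genes in the deposited expression matrix. All 38 were found by symbol, and all 38 passed the filter on low values. They comprise 3 regulators, 8 quinone, heme and xenobiotic enzymes and transporters, 4 aldo-keto reductases, 6 genes of the glutathione system, 6 of the thioredoxin system, 4 of NADPH supply, 3 superoxide dismutases and catalase, and 4 genes of iron storage and lipid peroxidation. RNA was measured by sequencing in U2OS, a human osteosarcoma cell line, in 32 libraries, 4 in each of 8 groups. The edited genotypes were p53 knockout (KO), heterozygous A347D (HET, with 1 mutant and 1 wild-type allele) and homozygous A347D (HOM, with both alleles mutant), set against the wild-type line (WT). Each genotype received etoposide at 20 µM or the solvent DMSO for 24 h. Etoposide is a topoisomerase II poison that leaves DNA double-strand breaks, and A347D lies in the tetramerization domain of p53. Replicates were separate plates of cells, and the edits were made with CRISPR-Cas9. The labels do not give the number of edited lines per genotype, so genotype and line cannot be told apart, and p-values measure the spread between plates.

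NRF2, encoded by NFE2L2, is held low in unstressed cells by KEAP1, an adaptor that brings it to a ubiquitin ligase. Electrophiles and oxidants modify KEAP1, NRF2 then accumulates, pairs with a small MAF protein such as MAFG and binds antioxidant response elements (AREs) near its targets. The targets make and recycle glutathione and thioredoxin, supply NADPH, detoxify quinones and aldehydes, and store iron. Much of NRF2 control acts on the protein, which RNA levels do not show. Several members also answer to other factors: SOD2 is a classic NF-kB target, and GPX1 and AIFM2 have been described as p53 targets.

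Promoter windows were searched because the members share a regulator with a known motif. RefSeq windows on GRCh38.p14, running from 250 bases before to 50 after a transcript start, were matched by symbol for 31 of the 38 members, with 43 windows. The ARE core TGACNNNGC, on either strand, was found in 11 of these 43 windows (25.58%) and in 13.35% of all 35116 windows. The 11 windows belonged to 10 members. The strict form TGACTCAGC, which is contained in the core, was found in 3 of 43 windows (6.98%), those of ME1, AIFM2 and PIR, against 0.56% of all windows. The p53 decamer consensus was found in 3 of 43 windows (6.98%), those of GPX1, GCLC and SOD2, against 6.63% of all windows. The decamer is only part of a p53 response element, so a match is not a complete element. A match describes letters and not a bound site, and members with several start sites have several windows. Shown are the 250 bases upstream of the RefSeq start for GPX1, whose etoposide response differed between genotypes, for ME1 and AIFM2, which hold the strict ARE, and for GCLM, which holds a core ARE and was higher in HET. All lie on the minus strand and read 5′ to 3′ toward the transcript. Capitals mark the p53 decamer in GPX1 and the ARE, on either strand, in the other sequences. The gene in GENCODE starts farther upstream than in RefSeq, so 247 of the 250 bases for GPX1, 20 for ME1, 109 for AIFM2 and 26 for GCLM lie inside the GENCODE gene, the marked motifs of GPX1 and AIFM2 included.
GPX1 (chr3:49358354-49358603): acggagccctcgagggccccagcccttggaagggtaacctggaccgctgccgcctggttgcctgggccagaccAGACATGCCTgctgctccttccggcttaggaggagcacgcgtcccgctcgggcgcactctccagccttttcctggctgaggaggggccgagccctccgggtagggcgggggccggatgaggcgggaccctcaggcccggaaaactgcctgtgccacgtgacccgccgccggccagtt
ME1 (chr6:83431052-83431301): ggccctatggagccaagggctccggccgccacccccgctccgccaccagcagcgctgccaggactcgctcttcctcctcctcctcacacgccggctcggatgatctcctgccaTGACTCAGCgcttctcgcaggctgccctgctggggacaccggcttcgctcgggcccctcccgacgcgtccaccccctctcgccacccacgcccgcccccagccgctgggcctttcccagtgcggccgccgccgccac
AIFM2 (chr10:70132826-70133075): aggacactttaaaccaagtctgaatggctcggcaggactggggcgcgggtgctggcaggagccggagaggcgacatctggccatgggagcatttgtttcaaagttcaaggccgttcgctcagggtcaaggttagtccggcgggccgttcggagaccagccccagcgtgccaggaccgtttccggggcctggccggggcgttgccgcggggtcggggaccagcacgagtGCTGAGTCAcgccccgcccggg
GCLM (chr1:93909431-93909680): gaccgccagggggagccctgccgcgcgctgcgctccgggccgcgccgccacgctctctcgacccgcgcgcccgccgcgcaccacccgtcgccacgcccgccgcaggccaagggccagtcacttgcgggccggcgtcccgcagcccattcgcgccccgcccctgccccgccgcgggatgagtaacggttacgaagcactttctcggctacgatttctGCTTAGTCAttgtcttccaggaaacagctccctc

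The libraries held 18.25 to 24.19 M recovered counts (M, 1e6 counts), apart from replicate 2 of HET etoposide with 8.05 M. CDKN1A, the p53 target that encodes p21, was higher with etoposide in KO (log2 fold change 1.54), HET (3.53), HOM (1.34) and WT (2.89). The HOM value uses all 4 DMSO libraries, which had 2019, 3023, 2946 and 4322 counts of CDKN1A, against a HOM etoposide mean of 7526. No fit with replicate 1 alone is given for CDKN1A, so HOM and KO are not ranked. The osteosarcoma label was checked with 8 mesenchymal and osteoblast markers: VIM, COL1A1, SPARC and COL5A1 had at least 2114 normalized counts in every library, RUNX2, ALPL and CDH11 were detected in every library, and COL1A2 was low at 1.75 to 54.2. Of the blood markers, HBB had at most 1.93 and PTPRC at most 36.4 normalized counts. Of the hepatocyte markers, ALB had at most 6.02 and TTR at most 13.8, and APOA1 had 16.9 to 53.1 in HOM libraries, against 2.77 to 18.4 in the other genotypes. Its part in the HOM results was not tested. Of the epithelial markers, KRT14 (33.2 to 2596) and CLDN4 (41.6 to 1873) were present. EPCAM (4.48 to 163), CDH1 (0.875 to 61.7) and KRT5 (7.34 to 41.5) were lower. In HOM DMSO, libraries 2, 3 and 4 stood apart from replicate 1 and from all other groups. Their mtDNA-encoded genes made up 20.68% to 21.92% of the normalized counts, against 12.46% in replicate 1, and their normalized counts summed to 32.02 to 47.28 M, against 22.94 M in replicate 1. The main counts of members, and the HOM responses described gene by gene, are therefore given with all 4 libraries and with replicate 1 alone. The lone library is assumed to vary like the other groups. HOM responses of some members, such as MAFG and GCLM, are not described gene by gene. Their absence does not mean that they were unchanged.

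Levels ranged widely among the members. Per kilobase of median transcript length, the ferritin chains that store iron, FTH1 and FTL, led in WT DMSO with 102026 and 60580 normalized counts, followed by GPX4 with 9096, GPX1 with 7454 and PRDX1 with 6875. The lowest were AKR1C1 with 2.70, ABCC2 with 3.45, AKR1C2 with 3.88 and AKR1B10 with 4.05. FTH1 and FTL together took 56.9% to 65.2% of the members' counts in each group, and all members took 0.903% to 1.19% of all normalized counts. FTH1 has 25 named pseudogenes and FTL 16, so reads of the ferritins may have been divided among copies in counting. AKR1C1 and AKR1C2 are near-identical paralogs with few counts, and their values are uncertain on both grounds. The counting strand is not stated, and exons of NFE2L2, SOD2, FTH1, AIFM2, PRDX1 and 6 other members overlap an antisense gene, whose reads cannot be told apart.

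In KO, HET and WT a minority of the members changed with etoposide, in both directions, and in HOM 24 of 38 did with all 4 DMSO libraries and 15 with replicate 1 alone. A member was counted as changed at an adjusted p under 0.05 (limma's moderated test, Benjamini-Hochberg adjustment over 16824 genes) with at least a 1.5-fold change. In KO, 8 of the 38 members rose and 4 fell, beside 32.6% of all genes changed, 18.1% higher and 14.5% lower. In HET, 7 rose and 6 fell, beside 30.2% of all genes, 17.5% higher and 12.7% lower. In WT, 9 rose and 5 fell, beside 35.0% of all genes, 20.1% higher and 14.9% lower. The members' shares were close to these backgrounds, and their median log2 fold changes were 0.07 in KO, -0.02 in HET and 0.17 in WT, against 0.05, 0.01 and 0.05 for all genes. In HOM, 14 rose and 10 fell with all 4 DMSO libraries, beside 65.6% of all genes, 37.2% higher and 28.5% lower, and 10 rose and 5 fell with DMSO replicate 1 alone, beside 38.2% of all genes. Scaling each library to its total count moved the median of all genes by 0.30 in KO, 0.19 in HET, 0.97 in HOM and 0.22 in WT on the log2 scale. The members' splits then became 12 higher and 2 lower in KO, 11 and 4 in HET, 26 and 1 in HOM, and 14 and 3 in WT. Of all 16824 genes, 5994 passed under this scaling in KO, 5019 in HET, 11605 in HOM and 5874 in WT. Their split by direction was not counted. ABCC2 and AKR1B10 rose in every genotype, and PIR and TKT fell in every genotype, the PIR fall in HOM turning to a log2 value of 0.08 under total-count scaling with all 4 DMSO libraries. The test was passed in none of KO, HET and WT by 20 members, among them KEAP1, NQO1, HMOX1, GCLM, TXNRD1, GSR and GPX4. The matching share of all genes was not counted, so the 20 are not read as a trait of the members.

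**Figure D1:**
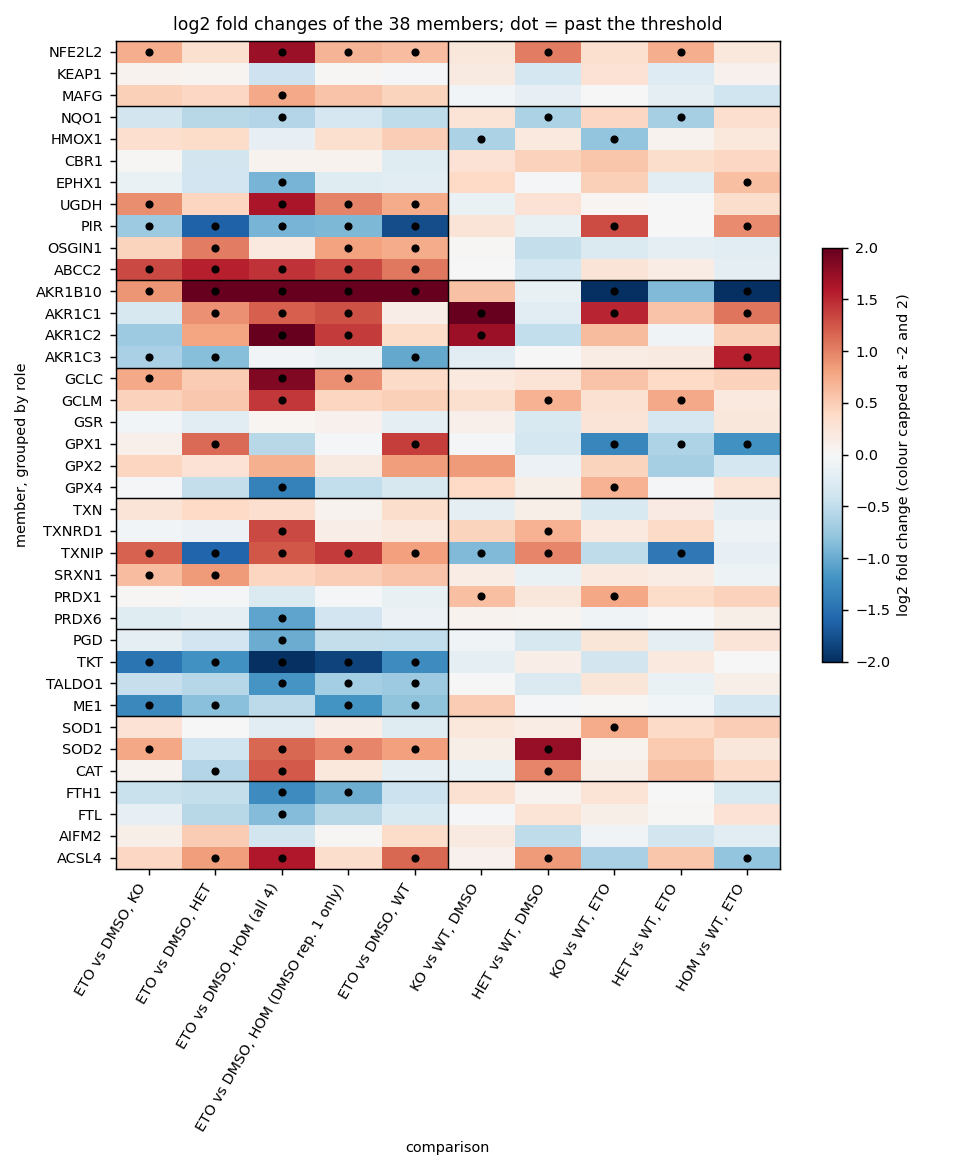
log2 fold changes of the 38 members (rows, grouped by role) in 10 comparisons (columns), red for higher and blue for lower in the group named first, with a dot where the member passed the test. TKT and ME1, listed in the NADPH supply group, are blue across the etoposide responses of KO, HET and WT, while most rows of the glutathione and thioredoxin systems are pale there.

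Among the regulators, NFE2L2 (chr2:177227595-177392697, minus strand, GRCh38) rose with etoposide in KO. It had 1029, 924, 1052 and 1017 normalized counts in KO etoposide libraries, against 677, 583, 654 and 536 in KO DMSO libraries (log2 fold change 0.72 ± 0.25 (SE), adjusted p = 0.019). In HET the counts were 1380.1, 1341, 1243 and 1361 with etoposide, against 977, 1357, 886 and 1106 with DMSO, and the change of 0.32, adjusted p = 0.32, did not pass. In WT the counts were 837, 908, 762 and 708 with etoposide, against 524, 718, 363 and 545 with DMSO (0.61 ± 0.25 (SE), adjusted p = 0.042). The KO groups were fully separated, the WT groups overlapped by 1 DMSO library, and the HET groups overlapped. The WT call sat at the edge of the threshold: it was lost, at log2 fold changes of 0.44 to 0.64, without replicate 1, 2 or 3 of WT etoposide or without replicate 1, 3 or 4 of WT DMSO. The KO call was lost without replicate 4 of KO DMSO, at 0.66. In HOM the counts were 1015, 971, 975 and 764 with etoposide, against 578, 175, 371 and 161 with DMSO, a rise of 1.73 ± 0.25 (SE), adjusted p = 5.1e-07 with all 4 DMSO libraries and 0.68 ± 0.23 (SE), adjusted p = 0.015 with replicate 1 alone.

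KEAP1, the repressor of NRF2, did not pass the test in any genotype. Its counts were 1879, 2136, 2085 and 2066 in KO etoposide, against 1824, 1944, 1952 and 2078 in KO DMSO. They were 1356, 1402, 1465 and 1387 in HET etoposide, against 1395, 1196, 1473 and 1330.1 in HET DMSO. They were 1682, 1744, 1818 and 1469.8 in WT etoposide, against 1782, 1611, 1736 and 1776 in WT DMSO. The groups overlapped in each genotype, with log2 fold changes of 0.07, 0.06 and -0.04 in KO, HET and WT. In HOM the counts were 1719, 1772, 1716 and 1930.3 with etoposide, against 1757, 2317, 2419.8 and 3215 with DMSO (-0.41, adjusted p = 0.0014; 0.02, adjusted p = 0.89 with replicate 1 alone). MAFG, a small MAF partner of NRF2, had log2 fold changes of 0.48 in KO, 0.41 in HET and 0.44 in WT, with separated groups but under the 1.5-fold minimum; under total-count scaling it passed in KO (0.79), HET (0.60) and WT (0.67).

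With the deposited library scaling, the classic NRF2 targets NQO1 and HMOX1 stayed under the fold minimum in KO, HET and WT. Their log2 fold changes had opposite signs. Total-count scaling moved the median of all genes by 0.30 in KO, 0.19 in HET and 0.22 in WT. NQO1 responses under it are not given for these genotypes. NQO1, which reduces quinones in a single step, had 3428, 3523, 3659 and 3443 counts in KO etoposide, against 4697, 4647, 4487 and 4381 in KO DMSO (-0.37, adjusted p = 0.0082). It had 1714, 1735, 1603 and 1554 in HET etoposide, against 2359, 2599, 2429 and 2296 in HET DMSO (-0.55, adjusted p = 0.00022). It had 2657, 2661, 2683 and 2504 in WT etoposide, against 3394, 3577, 5127 and 3166 in WT DMSO (-0.51, adjusted p = 0.00045). All etoposide libraries of these genotypes were below all their DMSO libraries. In HOM the counts were 3331, 3519.7, 3209.7 and 3197 with etoposide, against 4170.1, 4779.7, 4693 and 6624 with DMSO (-0.59, adjusted p = 3.4e-05), a fall with all 4 DMSO libraries that was -0.33, adjusted p = 0.057 with replicate 1 alone and 0.42 under total-count scaling. HMOX1, which opens the heme ring, had 876, 912, 860.5 and 780.2 counts in KO etoposide, against 622, 738, 663 and 699 in KO DMSO (0.33, adjusted p = 0.026). It had 1523, 1552, 1707 and 1485 in HET etoposide, against 1304, 1150.3, 1273 and 1132 in HET DMSO (0.37, adjusted p = 0.015). It had 1510.0, 1494, 1653 and 1308 in WT etoposide, against 1087, 913, 1181 and 1060.2 in WT DMSO (0.49, adjusted p = 0.0013). Here all etoposide libraries were above the DMSO libraries of their genotype, and under total-count scaling HMOX1 passed in KO (0.64) and WT (0.72). In HOM, HMOX1 had 1690.5, 1578, 1792 and 1799 with etoposide, against 1365, 1912, 2020.3 and 2563 with DMSO, and the groups overlapped. The HOM value was -0.16, adjusted p = 0.22, with all 4 DMSO libraries, and of the opposite sign with replicate 1 alone (0.33, adjusted p = 0.039), in both cases under the fold minimum.

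**Figure D2:**
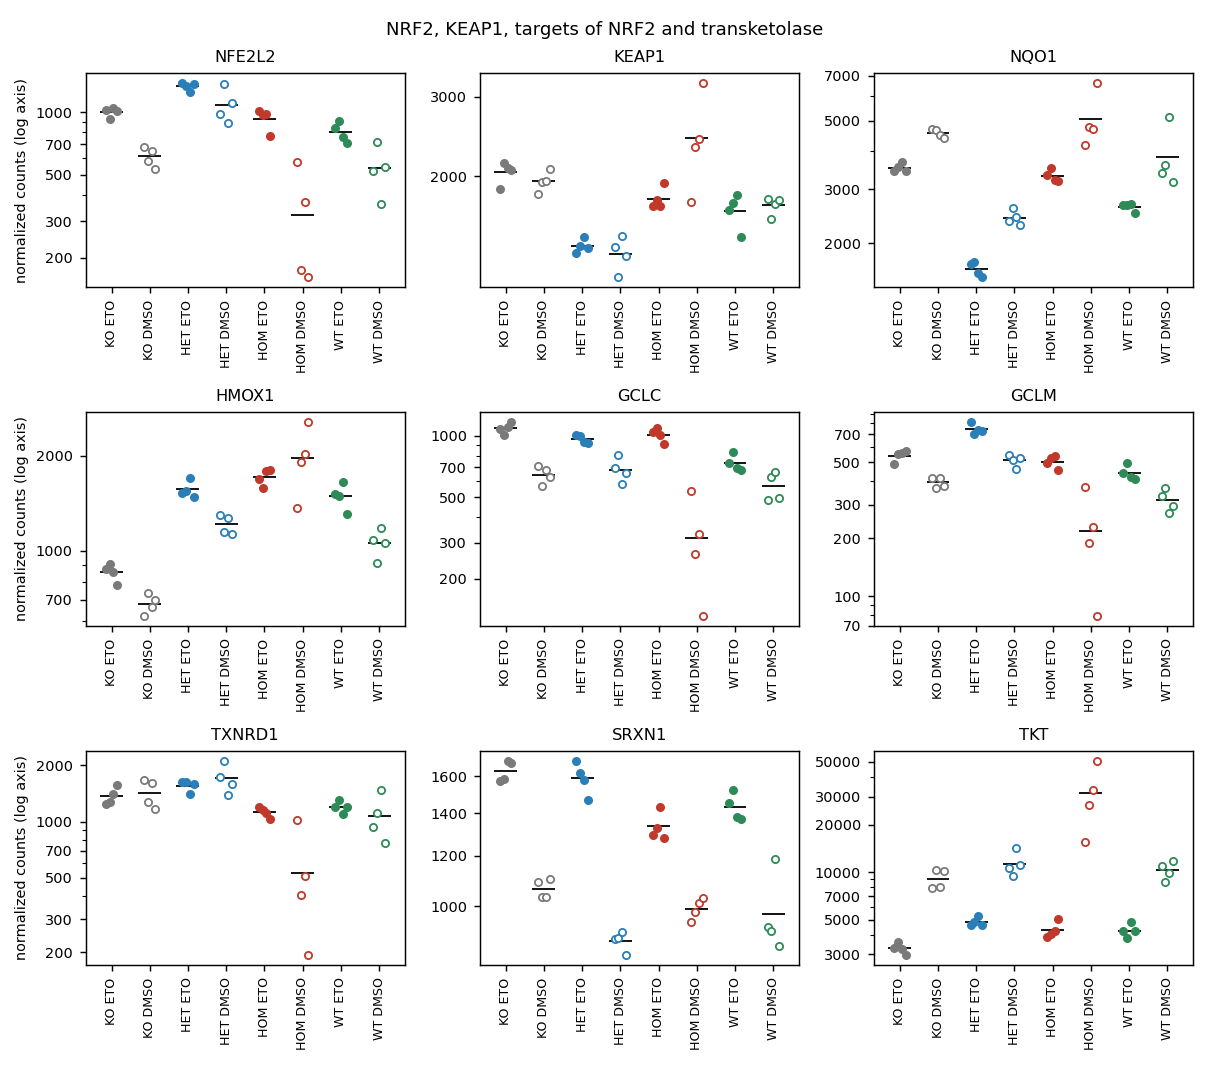
Normalized counts (log axis) of NFE2L2, KEAP1 and 7 enzymes in each library, by group, filled points for etoposide, open points for DMSO and a line at the mean of 4 libraries. The TKT etoposide points lie below the DMSO points in each genotype, and the open HOM points are widely spread for NFE2L2, GCLC, GCLM and TXNRD1.

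Of the other quinone, heme and xenobiotic genes, PIR fell in all genotypes and UGDH, OSGIN1 and ABCC2 rose in some or all. PIR (chrX:15384799-15493564, minus strand) encodes pirin, an iron-binding nuclear protein. It fell to 183, 179, 214 and 161 counts in KO etoposide libraries, against 278, 318, 320.3 and 301 in KO DMSO libraries (-0.73 ± 0.16 (SE), adjusted p = 0.00068). It fell to 92.3, 71.8, 60.05 and 75.6 in HET etoposide, against 226, 233, 223 and 231 in HET DMSO (-1.61 ± 0.16 (SE), adjusted p = 3.4e-09). It fell to 89.9, 84.3, 61.8 and 61.7 in WT etoposide, against 217, 231, 322 and 258 in WT DMSO (-1.78 ± 0.16 (SE), adjusted p = 4.2e-10). Groups were separated in all 3 genotypes, and the KO call did not pass under total-count scaling (-0.42). In HOM the counts were 157, 149, 143 and 121 with etoposide, against 266, 306, 186 and 353 with DMSO (-0.92, adjusted p = 1.3e-05; -0.90, adjusted p = 0.0013 with replicate 1 alone). The fall was smaller in KO than in WT, with a response difference of 1.05 ± 0.23 (SE), adjusted p = 0.0014, and smaller in HOM than in WT by 0.88 ± 0.26 (SE), adjusted p = 0.014 with DMSO replicate 1 alone.

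UGDH, which makes UDP-glucuronate for conjugation, had 633, 545, 625 and 689 counts in KO etoposide, against 377, 296, 378 and 271 in KO DMSO (0.92 ± 0.17 (SE), adjusted p = 4.2e-05). In WT it had 599.6, 678, 535 and 601 with etoposide, against 378, 453, 307 and 319.7 with DMSO (0.74 ± 0.17 (SE), adjusted p = 0.00052). Both pairs of groups were separated. In HET its change of 0.43, adjusted p = 0.035, was under the fold minimum, and in HOM it had 809, 833, 773 and 656 with etoposide, against 384, 212, 242 and 185 with DMSO (1.63, adjusted p = 1.4e-09; 0.99, adjusted p = 0.00023 with replicate 1 alone). OSGIN1, an oxidative stress-induced growth inhibitor, rose to 625, 736, 863 and 729 in HET etoposide, against 313, 327, 465 and 356 in HET DMSO (1.02 ± 0.18 (SE), adjusted p = 3.3e-05). In WT it rose to 844 ± 71.9 with etoposide, against 505 ± 74.8 with DMSO (SD, n = 4 each; log2 fold change 0.75). Its KO change was 0.44, adjusted p = 0.046, with overlapping groups and under the fold minimum. In HOM it was 0.19, adjusted p = 0.33, with all 4 DMSO libraries, and 0.81, adjusted p = 0.0035, with replicate 1 alone. ABCC2, an exporter of conjugates, had 34.1, 51.2, 50.3 and 67.3 counts in KO etoposide, against 14.6, 14.99, 22.8 and 26.7 in KO DMSO (1.32 ± 0.23 (SE), adjusted p = 2.2e-05). Its means with etoposide and DMSO were 46.1 and 15.1 in HET, 35.9 and 12.9 in HOM, and 41.4 and 19.7 in WT. It was low in every library but separated in each genotype. In HOM its log2 fold change was 1.45, adjusted p = 1.8e-06, with all 4 DMSO libraries and 1.33, adjusted p = 0.0013, with replicate 1 alone. CBR1, a carbonyl reductase, and EPHX1, the microsomal epoxide hydrolase, passed in none of KO, HET and WT, with log2 fold changes between -0.38 and 0.02.

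AKR1B10 (chr7:134527592-134541408, plus strand), an aldo-keto reductase of retinal and aliphatic aldehydes, showed the largest fold of the members in WT and HET. It had 113, 133, 122 and 109 counts in WT etoposide, against 5.72, 5.31, 10.6 and 4.09 in WT DMSO, a 16.97-fold rise (4.08 ± 0.36 (SE), adjusted p = 1.7e-10). It had 64.3, 73.8, 51.9 and 67.8 in HET etoposide, against 6.12, 6.94, 6.999 and 2.65 in HET DMSO (3.35 ± 0.36 (SE), adjusted p = 1e-08). It had 27.7, 17.4, 17.9 and 13.5 in KO etoposide, against 6.81, 16.1, 13.3 and 5.57 in KO DMSO (0.88 ± 0.36 (SE), adjusted p = 0.048). WT and HET groups were far apart, whereas the KO groups overlapped. The KO call was lost without replicate 1, 2 or 3 of KO etoposide or replicate 1 or 4 of KO DMSO, at log2 fold changes of 0.65 to 0.91. The response was smaller in KO than in WT by -3.21 ± 0.51 (SE), adjusted p = 2.9e-05. In HOM the counts were 25.3, 21.1, 19.9 and 17.9 with etoposide, against 1.05, 8.96, 5.26 and 4.25 with DMSO, a rise of 2.11 ± 0.36 (SE), adjusted p = 7.6e-06 with all 4 DMSO libraries. It also passed with DMSO replicate 1 alone, but that library held 1 count of AKR1B10, so no fold is given. The DMSO levels rest on few counts in all genotypes, so the folds depend on the pseudocount of 1.

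AKR1C3, which reduces steroids and prostaglandins, fell in KO, HET and WT. It had 202, 264, 244 and 228 counts in KO etoposide, against 364, 374, 359 and 363 in KO DMSO (-0.64 ± 0.13 (SE), adjusted p = 0.00014). It had 278, 262, 200.4 and 217 in HET etoposide, against 376, 527, 430.4 and 396 in HET DMSO (-0.85 ± 0.13 (SE), adjusted p = 2.8e-06). It had 232, 211, 219 and 180.2 in WT etoposide, against 368, 431, 560.0 and 378 in WT DMSO (-1.03 ± 0.13 (SE), adjusted p = 1e-07). No etoposide library reached a DMSO library of its genotype; the KO call was lost without replicate 1 of KO etoposide, at -0.58, and under total-count scaling, at -0.34. In HOM it had 609, 659, 651 and 557 with etoposide, against 675, 674, 589 and 633 with DMSO, and the groups overlapped (-0.05, adjusted p = 0.7; -0.13, adjusted p = 0.62 with replicate 1 alone). The response difference between HOM and WT was 0.97 ± 0.18 (SE), adjusted p = 8e-05 with all 4 DMSO libraries and 0.90 ± 0.23 (SE), adjusted p = 0.0059 with replicate 1 alone. AKR1C1 had means of 14.98 in HET etoposide and 7.44 in HET DMSO (0.91, adjusted p = 0.017), a call lost without replicate 2 of HET etoposide, at 0.81. AKR1C1 and AKR1C2 did not pass in KO or WT. In HOM with DMSO replicate 1 alone, their log2 fold changes were 1.27 and 1.39, at few counts.

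In the glutathione system, GPX1 passed the test as higher in WT and HET, and GCLC did in KO. In HET and WT, GCLC was also higher in every etoposide library than in the DMSO libraries, without passing. GCLM, GSR, GPX2 and GPX4 did not pass in KO, HET or WT. GPX1 (chr3:49357171-49358600, minus strand, annotated as a polymorphic pseudogene in GENCODE release 29) encodes the main cytosolic glutathione peroxidase; its promoter is shown above. It had 8384, 8789.6, 7736 and 6821 counts in KO etoposide, against 7125, 7865, 7234 and 7284 in KO DMSO (0.10 ± 0.15 (SE), adjusted p = 0.62). It rose to 12373, 12868, 13729 and 12285 in HET etoposide, against 5474, 5506, 7080.4 and 5468 in HET DMSO, a 2.19-fold change (1.13 ± 0.15 (SE), adjusted p = 5.3e-07). It rose to 21015, 17996, 20402 and 19135 in WT etoposide, against 7638, 6378, 9328 and 6951 in WT DMSO, a 2.61-fold change (1.39 ± 0.15 (SE), adjusted p = 1.2e-08). The KO groups overlapped, and the HET and WT groups were separated. The KO response was smaller than the WT response by -1.29 ± 0.22 (SE), adjusted p = 5.6e-05. In HOM the counts were 8434, 8323, 8501 and 8715 with etoposide, against 8594, 11698, 11858 and 20112 with DMSO (-0.55, adjusted p = 0.0019; -0.02, adjusted p = 0.94 with replicate 1 alone). The response difference between HOM and WT was -1.94 ± 0.22 (SE), adjusted p = 5.3e-08 with all 4 DMSO libraries and -1.40 ± 0.18 (SE), adjusted p = 1.7e-06 with replicate 1 alone. The HET response differed from that of WT by -0.26, adjusted p = 0.68, which did not pass.

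**Figure D3:**
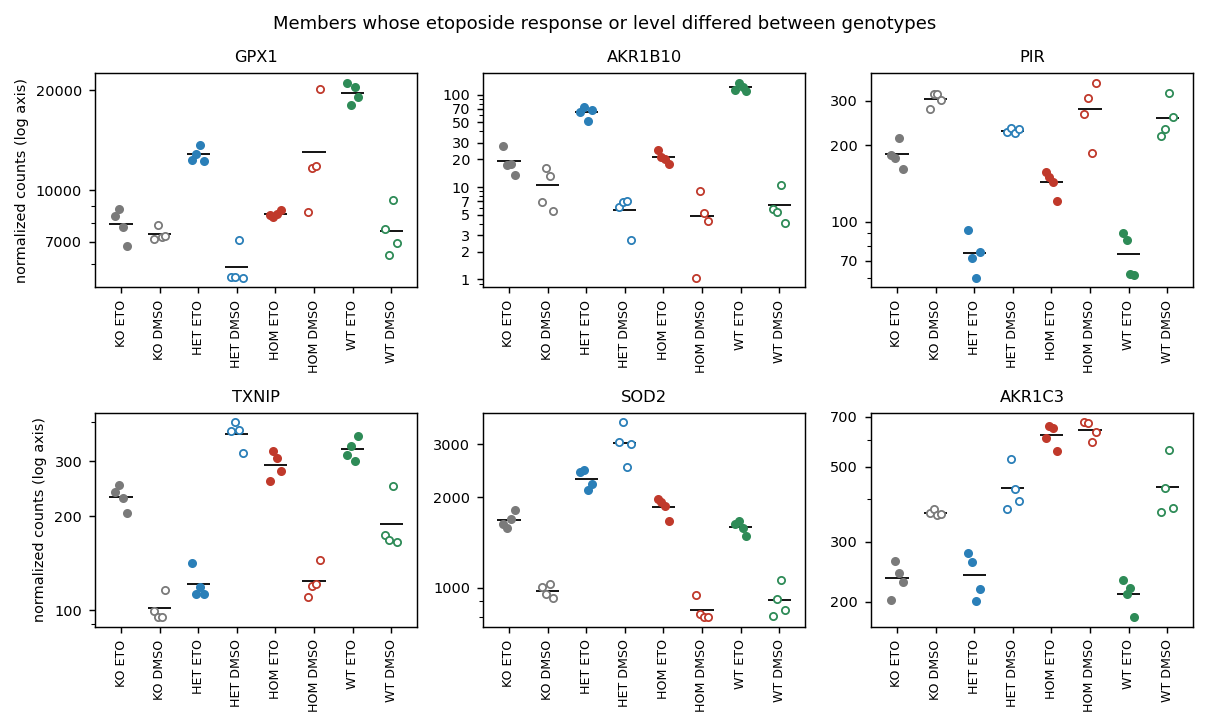
Normalized counts (log axis) of 6 members in each library, by group, filled points for etoposide, open points for DMSO and a line at the mean of 4 libraries. GPX1 and AKR1B10 with etoposide stand highest in WT, then HET, with KO and HOM below, and TXNIP with etoposide is lowest in HET.

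GCLC, the catalytic subunit of the enzyme that limits glutathione synthesis, rose in KO to 1073, 1007, 1108 and 1169 counts with etoposide, against 711, 568, 678 and 626 with DMSO (0.76 ± 0.22 (SE), adjusted p = 0.006). Its log2 fold change was 0.51, adjusted p = 0.065, in HET and 0.38, adjusted p = 0.16, in WT. These groups were separated as well, with 925 to 1006 counts against 581 to 806 in HET and 681 to 835 against 486 to 663 in WT. The spread behind these p-values includes the uneven HOM DMSO libraries. GCLC did not pass when its KO or HET response was set against that of WT, so its rise is not shown to be specific to KO. In HOM it had 1038, 1096, 1012 and 908 with etoposide, against 539, 266, 329 and 132 with DMSO (1.84, adjusted p = 2.5e-08; 0.91, adjusted p = 5.4e-05 with replicate 1 alone). The wide HOM DMSO spread came from replicates 2 to 4, of which replicate 4 was lowest. GCLM, its modifier subunit, had means of 543 ± 35.2 in KO etoposide and 393 ± 24.4 in KO DMSO, 746 ± 47.9 in HET etoposide and 512 ± 36.9 in HET DMSO, and 441 ± 37.6 in WT etoposide and 317 ± 42.3 in WT DMSO (SD, n = 4 each). Its etoposide libraries were above the DMSO libraries of the same genotype in each of these pairs, with log2 fold changes of 0.46, 0.54 and 0.48 that did not pass. GSR, which regenerates glutathione, had log2 fold changes of -0.05, -0.21 and -0.20 in KO, HET and WT. GPX4, the peroxidase of membrane lipids that guards against ferroptosis, had -0.03, -0.48 and -0.32, and GPX2 had at most 15.5 normalized counts as a group mean.

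Within the thioredoxin system, TXNIP moved in opposite directions between genotypes. TXNIP (chr1:145992435-145996600, minus strand) binds and inhibits thioredoxin and also limits glucose uptake. It rose to 239.7, 251, 228 and 205 counts in KO etoposide, against 99.3, 95.3, 95.03 and 116 in KO DMSO (1.18 ± 0.13 (SE), adjusted p = 9.6e-09). It fell to 141, 113, 118 and 113 in HET etoposide, against 374, 399.9, 379 and 318 in HET DMSO (-1.59 ± 0.13 (SE), adjusted p = 1.7e-11). It rose to 314, 336, 301 and 362 in WT etoposide, against 173, 167, 250.1 and 165 in WT DMSO (0.81 ± 0.13 (SE), adjusted p = 4.1e-06). In none of these pairs did the libraries overlap. In HOM it rose to 259.6, 324, 307 and 279 with etoposide, against 110.1, 119, 121 and 144 with DMSO (1.24 ± 0.13 (SE), adjusted p = 1.5e-09; 1.40 ± 0.19 (SE), adjusted p = 9.8e-07 with replicate 1 alone). The HET response differed from the WT response by -2.41 ± 0.18 (SE), adjusted p = 1.7e-10. HET was set apart on both sides: its DMSO libraries had the highest mean of the 8 groups, and each of its etoposide libraries was below every etoposide library of the other genotypes.

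SRXN1, a sulfiredoxin that reactivates peroxiredoxins, rose to 1693, 1619.8, 1578 and 1468 counts in HET etoposide, against 890.2, 892, 911 and 839 in HET DMSO (0.85 ± 0.08 (SE), adjusted p = 4.8e-10). In KO it rose to 1632 ± 62.3 with etoposide, against 1066 ± 37.4 with DMSO, and in WT it had 1433 ± 71.7 with etoposide, against 974 ± 144 with DMSO (SD, n = 4 each). The log2 fold changes were 0.61, adjusted p = 2.6e-07, in KO and 0.57, adjusted p = 7e-07, in WT, on either side of the 1.5-fold minimum, so these genotypes are not shown to differ. The HOM change was 0.43, adjusted p = 1.8e-05, with all 4 DMSO libraries and 0.50, adjusted p = 0.00099, with replicate 1 alone. TXN, thioredoxin itself, had log2 fold changes of 0.26 in KO, 0.40 in HET and 0.36 in WT. TXNRD1, the cytosolic thioredoxin reductase, had -0.05, -0.11 and 0.20, and the peroxiredoxins PRDX1 and PRDX6 had values from -0.25 to 0.03. None of these passed in KO, HET or WT.

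With the deposited library scaling, the 4 genes listed under NADPH supply had negative log2 fold changes with etoposide in KO, HET and WT. TKT and ME1 fell in all 3 of these genotypes. TKT (chr3:53224707-53256052, minus strand), transketolase of the pentose phosphate pathway, fell to 3302, 3622, 3250.4 and 2981 counts in KO etoposide, against 7929.6, 10315, 8027 and 10120.3 in KO DMSO (-1.46 ± 0.20 (SE), adjusted p = 8.6e-07). It fell to 4641, 4855, 5257 and 4606 in HET etoposide, against 10671, 9428, 14122 and 11065 in HET DMSO (-1.21 ± 0.20 (SE), adjusted p = 1.2e-05). It fell to 4199, 3820.3, 4794 and 4199 in WT etoposide, against 10912, 8589.8, 9838 and 11698 in WT DMSO (-1.27 ± 0.20 (SE), adjusted p = 6e-06). Every etoposide library lay below every DMSO library of its genotype. In HOM it fell to 3899, 4056, 4216 and 5003 with etoposide, against 15468, 26709.6, 33068 and 50837 with DMSO (-2.76 ± 0.20 (SE), adjusted p = 2.2e-12; -1.86 ± 0.18 (SE), adjusted p = 5e-09 with replicate 1 alone). ME1, the cytosolic malic enzyme, whose promoter is shown above, fell to 228, 254, 261 and 285 in KO etoposide, against 688, 606, 633 and 577 in KO DMSO (-1.28 ± 0.17 (SE), adjusted p = 4.5e-07). It fell to 251, 283, 237 and 236 in WT etoposide, against 474, 444, 459.6 and 391 in WT DMSO (-0.81 ± 0.17 (SE), adjusted p = 0.00023), and by -0.84 on the log2 scale in HET. The WT and HET calls of ME1 did not pass under total-count scaling (-0.58 and -0.65). In HOM, ME1 had 207, 192, 187 and 199 with etoposide, against 449.7, 266, 338 and 159 with DMSO (-0.53, adjusted p = 0.006; -1.19, adjusted p = 3.1e-08 with replicate 1 alone). TALDO1, transaldolase, had 1616 ± 97.6 in WT etoposide and 2678 ± 323 in WT DMSO (SD, n = 4 each), a fall of -0.72 that became -0.49 and did not pass under total-count scaling. Its values in KO (-0.46) and HET (-0.57) were under the fold minimum, as were those of PGD, 6-phosphogluconate dehydrogenase, in KO (-0.20), HET (-0.38) and WT (-0.50). Total-count scaling moved the median of all genes by 0.30 in KO, and the sign of PGD there was not checked under it. In HOM with DMSO replicate 1 alone, TALDO1 had -0.68 and PGD -0.48.

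Of the enzymes that remove superoxide and peroxide, SOD2 rose in KO and WT. SOD2 (chr6:159669057-159745186, minus strand), the mitochondrial manganese enzyme, had 1629, 1578, 1689 and 1807 counts in KO etoposide, against 1006, 951, 1024 and 924 in KO DMSO (0.78 ± 0.09 (SE), adjusted p = 1.1e-07). It had 1621, 1659.8, 1582 and 1486 in WT etoposide, against 805, 918, 1059 and 839.6 in WT DMSO (0.82 ± 0.09 (SE), adjusted p = 3e-08). It had 2416, 2458, 2103 and 2204 in HET etoposide, against 3038, 3546, 2526 and 3009.7 in HET DMSO (-0.39 ± 0.09 (SE), adjusted p = 0.0011), below the fold minimum and in the other direction. All 3 pairs were separated, and the HET response differed from that of WT by -1.21 ± 0.13 (SE), adjusted p = 4.7e-07. In HOM, SOD2 rose to 1965, 1932, 1864 and 1668 with etoposide, against 945, 817, 799 and 799 with DMSO (1.14 ± 0.09 (SE), adjusted p = 2.7e-11; 0.97 ± 0.14 (SE), adjusted p = 2.8e-06 with replicate 1 alone). CAT, catalase, had 1439, 1489, 1517 and 1469 in HET etoposide, against 2232, 2587, 1946 and 2165 in HET DMSO (-0.59 ± 0.24 (SE), adjusted p = 0.047). That call was lost in 7 of the 8 fits that left out 1 HET library (all but replicate 3 of HET DMSO), at -0.60 to -0.51, and under total-count scaling, at -0.40. SOD1, the copper-zinc enzyme of the cytosol, passed in none of KO (0.29), HET (-0.02) and WT (-0.24).

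In the iron and lipid peroxidation group, ACSL4 rose in WT and HET. ACSL4, which loads polyunsaturated fatty acids into lipids that can be peroxidized, had 554, 679, 531 and 561 counts in WT etoposide, against 289.8, 401, 140.0 and 283 in WT DMSO (1.15 ± 0.30 (SE), adjusted p = 0.0025). In HET it had 910.2, 804, 813 and 867 with etoposide, against 465, 621, 364 and 472 with DMSO (0.84 ± 0.30 (SE), adjusted p = 0.025), and in KO 370.1 ± 16.4 with etoposide, against 279.6 ± 46.8 with DMSO (SD, n = 4 each; 0.42, adjusted p = 0.27). The HET call was lost without replicate 1 of HET etoposide (0.81) or replicate 3 of HET DMSO (0.72). AIFM2, also called FSP1, a reductase that counters lipid peroxidation, stayed under the fold minimum. It had 1338, 1226, 1231 and 1192 in KO etoposide, against 1044, 1208, 1168 and 1204 in KO DMSO (0.11, adjusted p = 0.44). It had 1036, 1060.0, 974 and 993 in HET etoposide, against 702, 711, 710.4 and 719 in HET DMSO (0.51, adjusted p = 0.00039). It had 1310.2, 1354, 1369 and 1222 in WT etoposide, against 959, 926, 1113 and 1072 in WT DMSO (0.37, adjusted p = 0.0072). HET and WT groups were separated and KO groups overlapped, and under total-count scaling AIFM2 passed in HET (0.71) and WT (0.60). In HOM, AIFM2 had 1116, 1178, 1124 and 1126 with etoposide, against 1113, 1383, 1447 and 2111 with DMSO, again with overlap (-0.37, adjusted p = 0.0035; 0.03, adjusted p = 0.83 with replicate 1 alone). FTH1 and FTL had log2 fold changes of -0.45 and -0.17 in KO, -0.48 and -0.55 in HET, and -0.43 and -0.31 in WT, none past the fold minimum. In HOM, FTH1 had 45121, 45545, 44648 and 50826 with etoposide, against 91002, 106841, 120339 and 131220.0 with DMSO (-1.26, adjusted p = 7.2e-10; -0.97, adjusted p = 7.1e-05 with replicate 1 alone).

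The etoposide responses of the edited genotypes were compared with that of WT directly. Here more and less give a positive or a negative difference of log2 fold changes, not the size of a response. A larger fall, as of TKT in HOM, thus counts as less. For KO, 1 member responded more and 2 less, beside 15.2% of all genes, 7.11% more and 8.13% less: PIR (1.05), AKR1B10 (-3.21) and GPX1 (-1.29). PIR fell less in KO, and AKR1B10 and GPX1 rose less. For HET, 0 responded more and 2 less, TXNIP (-2.41) and SOD2 (-1.21), beside 4.75% of all genes, 2.97% more and 1.78% less. TXNIP fell in HET and rose in WT, and SOD2 rose in WT but had a negative log2 fold change in HET. For HOM, 10 responded more and 9 less with all 4 DMSO libraries, beside 50.2% of all genes, 26.2% more and 23.9% less. With DMSO replicate 1 alone, 4 of these differences passed, for PIR (0.88), AKR1C3 (0.90), GPX1 (-1.40) and TKT (-0.59), beside 18.4% of all genes. HOM against KO gave 12 and 9 with all 4 DMSO libraries, beside 43.7%, 24.4% more and 19.3% less, but 10 in all without replicate 4 of HOM DMSO and 1, AKR1B10, which rests on 1 count, with replicate 1 alone, beside 1.85%. Under total-count scaling the splits became 2 and 2 for KO against WT, 22 and 3 for HOM against WT, and 18 and 2 for HOM against KO, with medians of all genes moved by 0.74 and 0.66 in the HOM comparisons. Of all genes, 2312, 9152 and 8192 passed in these comparisons under this scaling. These comparisons share the WT or KO libraries. All genes were not counted for the fit without replicate 4 of HOM DMSO. With replicate 1 alone, the TKT difference between HOM and WT sat at the edge of the threshold.

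**Figure D4:**
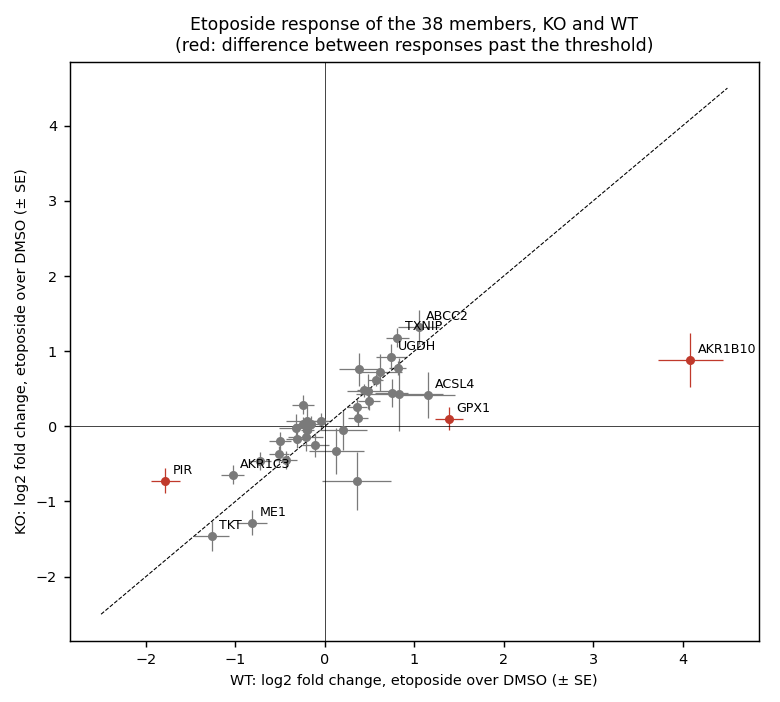
log2 fold change with etoposide over DMSO of each member in KO (vertical axis) against WT (horizontal axis), with SE bars and a dashed line of equality. PIR, GPX1 and AKR1B10, in red, are the members whose difference between responses passed the test, and most other members lie near the line.

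Without etoposide, few members differed between KO and WT. In DMSO, 3 were higher and 2 lower in KO, beside 8.35% of all genes, 2.75% higher and 5.59% lower. HMOX1 was lower in KO (681 against 1060.2 normalized counts; -0.64 ± 0.12 (SE), adjusted p = 0.00037), a call lost without replicate 3 of WT DMSO, at -0.58. TXNIP was lower as well (101 against 189; -0.88 ± 0.13 (SE), adjusted p = 7.4e-06). PRDX1, an abundant peroxiredoxin, had 11012, 10226, 10396 and 10177 counts in KO DMSO, against 6159, 6405, 9265 and 6246 in WT DMSO (0.60 ± 0.11 (SE), adjusted p = 0.00029). The PRDX1 groups were separated, but the call was lost without replicate 1, 2 or 4 of WT DMSO or replicate 1 of KO DMSO, at 0.54 to 0.57. AKR1C1 (38.7 against 10.2; 1.99) and AKR1C2 (19.2 against 5.74; 1.72) were higher in KO, at low counts.

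HET cells in DMSO had 7 members higher and 1 lower than WT, beside 32.5% of all genes, 16.1% higher and 16.4% lower. Under total-count scaling, which moved the median of all genes by 0.27, the split was 8 and 0, beside 5782 of all genes. Among the members, SOD2 showed the largest difference, with 3030.0 normalized counts in HET against 905 in WT (1.74 ± 0.09 (SE), adjusted p = 8.3e-15). NFE2L2 had 1082 against 538 (1.03 ± 0.25 (SE), adjusted p = 0.0013), and CAT had 2232, 2587, 1946 and 2165 in HET, against 1047, 1218, 1226 and 1015 in WT (0.98 ± 0.24 (SE), adjusted p = 0.0014). TXNIP (0.97), GCLM (0.70), TXNRD1 (0.70) and ACSL4 (0.85) were also higher. All libraries of HET were above those of WT for SOD2, NFE2L2, CAT, TXNIP and GCLM, and the groups overlapped for TXNRD1 and ACSL4. The TXNRD1 call was lost in 5 of the fits without 1 library, replicates 1 and 4 of WT DMSO and 1, 2 and 4 of HET DMSO, at 0.55 to 0.72, and the ACSL4 call without replicate 3 of WT DMSO (0.56) or replicate 2 of HET DMSO (0.72). NQO1 was lower in HET, with 2421 against 3816 (-0.63 ± 0.11 (SE), adjusted p = 5.3e-05), but not past the threshold without replicate 3 of WT DMSO (-0.48) or under total-count scaling (-0.35). 

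With etoposide, 5 members were higher and 3 lower in KO than in WT, beside 26.7% of all genes, 11.7% higher and 15.0% lower. PIR was higher (184 against 74.4 normalized counts; 1.31 ± 0.16 (SE), adjusted p = 1.8e-07), and so was PRDX1, with 10483, 10812, 10871 and 10545 counts in KO, against 6319.8, 6483, 6059.9 and 6033 in WT (0.78 ± 0.11 (SE), adjusted p = 1.5e-06). SOD1 had 6262, 5416, 5584 and 5247 in KO, against 3184, 3436, 3277 and 3569.9 in WT (0.74 ± 0.12 (SE), adjusted p = 1.6e-05). GPX4 had 12201, 10359, 10165 and 8156 in KO, against 6437, 5569, 6743 and 6327 in WT (0.69 ± 0.19 (SE), adjusted p = 0.0042). The KO libraries were above all WT libraries for these 4 genes. AKR1B10 (19.1 against 119; -2.63 ± 0.36 (SE), adjusted p = 8.5e-07), GPX1 (7933 against 19637; -1.31 ± 0.15 (SE), adjusted p = 4.4e-08) and HMOX1 (857 against 1491; -0.80 ± 0.12 (SE), adjusted p = 4.1e-06) were lower in KO. AKR1C1 was higher (1.53), at low counts. In the authors' deposited table for this comparison, GPX1 had a log2 fold change of -1.31, AKR1B10 of -2.65 and PIR of 1.31.

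HET with etoposide had 2 members higher and 3 lower than WT, beside 23.3% of all genes, 10.1% higher and 13.2% lower. Under total-count scaling, which moved the median by 0.24, the split was 6 and 1, beside 3994 of all genes. GCLM was higher (815, 705, 736 and 728 counts in HET, against 439, 494, 421 and 409 in WT; 0.76 ± 0.23 (SE), adjusted p = 0.012), as was NFE2L2 (1331 against 804; 0.73 ± 0.25 (SE), adjusted p = 0.022). TXNIP (121 against 328; -1.43 ± 0.13 (SE), adjusted p = 4.6e-10), NQO1 (1651 against 2626; -0.67 ± 0.11 (SE), adjusted p = 3.3e-05) and GPX1 (12814 against 19637; -0.61 ± 0.15 (SE), adjusted p = 0.0024) were lower. The groups were separated for all 5 genes. Leaving out replicate 3 (0.71) or 4 (0.67) of WT etoposide ended the NFE2L2 call, and leaving out replicate 1 of WT etoposide ended that of GPX1 (-0.58). Under total-count scaling NQO1 (-0.43) and GPX1 (-0.37) did not pass.

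HOM with etoposide, whose libraries do not include the outlying DMSO ones, had 4 members higher and 3 lower than WT, beside 28.6% of all genes, 14.0% higher and 14.7% lower. Under total-count scaling, which moved the median by 0.22, the split was 7 and 2, beside 4877 of all genes. AKR1C3 was higher (619 against 210.3; 1.56 ± 0.13 (SE), adjusted p = 3.9e-11), as were PIR (143 against 74.4; 0.94 ± 0.16 (SE), adjusted p = 2.8e-05) and, at low counts, AKR1C1 (1.07). EPHX1 had 3291, 3121, 3576 and 4192 counts in HOM, against 2308, 2046, 2506 and 2415 in WT (0.61 ± 0.19 (SE), adjusted p = 0.011), a call lost without replicate 2 of WT etoposide (0.55) or replicate 4 of HOM etoposide (0.52). AKR1B10 (21.1 against 119; -2.46 ± 0.36 (SE), adjusted p = 2.3e-06) and GPX1 (8493 against 19637; -1.21 ± 0.15 (SE), adjusted p = 1.8e-07) were lower in HOM. ACSL4 had 375, 376, 318 and 281 in HOM, against 554, 679, 531 and 561 in WT (-0.79 ± 0.30 (SE), adjusted p = 0.038), a call lost in 6 of the 8 fits that left out 1 library, all but replicates 1 and 2 of HOM etoposide, at -0.83 to -0.70. Against KO with etoposide, 2 members were higher and 1 lower in HOM, beside 12.1% of all genes, 7.47% higher and 4.67% lower: AKR1C3 (1.40 ± 0.13 (SE), adjusted p = 2.2e-09), HMOX1 (1715 against 857; 1.0 ± 0.12 (SE), adjusted p = 3.6e-07) and FTH1 (-0.59 ± 0.12 (SE), adjusted p = 0.00074). Under total-count scaling this split was 2 and 0, beside 2251 of all genes. The FTH1 call was lost without replicate 1 or 2 of KO etoposide or replicate 1, 2 or 3 of HOM etoposide, at -0.58 to -0.51. GPX1 and AKR1B10 had log2 differences of 0.10 and 0.17 between HOM and KO, with overlapping groups, and each was lower in HOM and in KO than in WT, comparisons that share the WT libraries.

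In DMSO the HOM results turned on which libraries were used. With all 4, 9 members were higher and 11 lower than WT, beside 47.6% of all genes, 20.0% higher and 27.6% lower, and 10 were higher and 11 lower than KO, beside 51.2%, 22.6% higher and 28.6% lower. Under total-count scaling, which moved the median of all genes by -0.51 and -0.52, these splits became 3 and 15 against WT and 2 and 19 against KO. Of all genes, 8264 and 8504 passed under this scaling. With replicate 1 alone, 4 members differed from WT, beside 4.54% of all genes: AKR1B10, lower but with 1 count in this library, AKR1C3 (0.66), TXNIP (-0.75) and TKT (0.60). With replicate 1 alone, 6 differed from KO, beside 8.66%: HMOX1 (1.01), AKR1B10 and AKR1C2, lower but with 1 and 3 counts in this library, AKR1C1 (-2.05), AKR1C3 (0.89) and TKT (0.78). The differences of AKR1C3 and TKT from WT with replicate 1 alone sat at the edge of the threshold. Libraries 2, 3 and 4 all lay above replicate 1 for 19 members, all below it for 13, and on both sides for 6. The same was not counted over all genes, so these numbers are not read as a trait of the members. GPX4 had 10698, 18572, 22215 and 32561 counts in HOM DMSO, against 7516, 6779, 8370.3 and 8824 in WT DMSO. PRDX6, a peroxiredoxin with phospholipase activity, had 7502, 10579.6, 13385 and 19370.3 in HOM DMSO, against 5782, 5107, 6057 and 6128 in WT DMSO. EPHX1 had 4159.6, 6042, 7734 and 10657 in HOM DMSO, against 3441, 2234, 2219.8 and 3035 in WT DMSO. For these 3 genes replicate 4 was the highest HOM DMSO library and replicate 1 the lowest. TXNRD1 had 1024, 403, 512 and 193 in HOM DMSO, against 933, 1116, 1477 and 766 in WT DMSO, and CAT had 1094, 473, 711 and 234 in HOM DMSO, with replicate 4 lowest in both. The mtDNA-encoded share and the summed normalized counts were also higher in libraries 2 to 4 than in replicate 1, and their part in these differences was not tested.

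**Figure D5:**
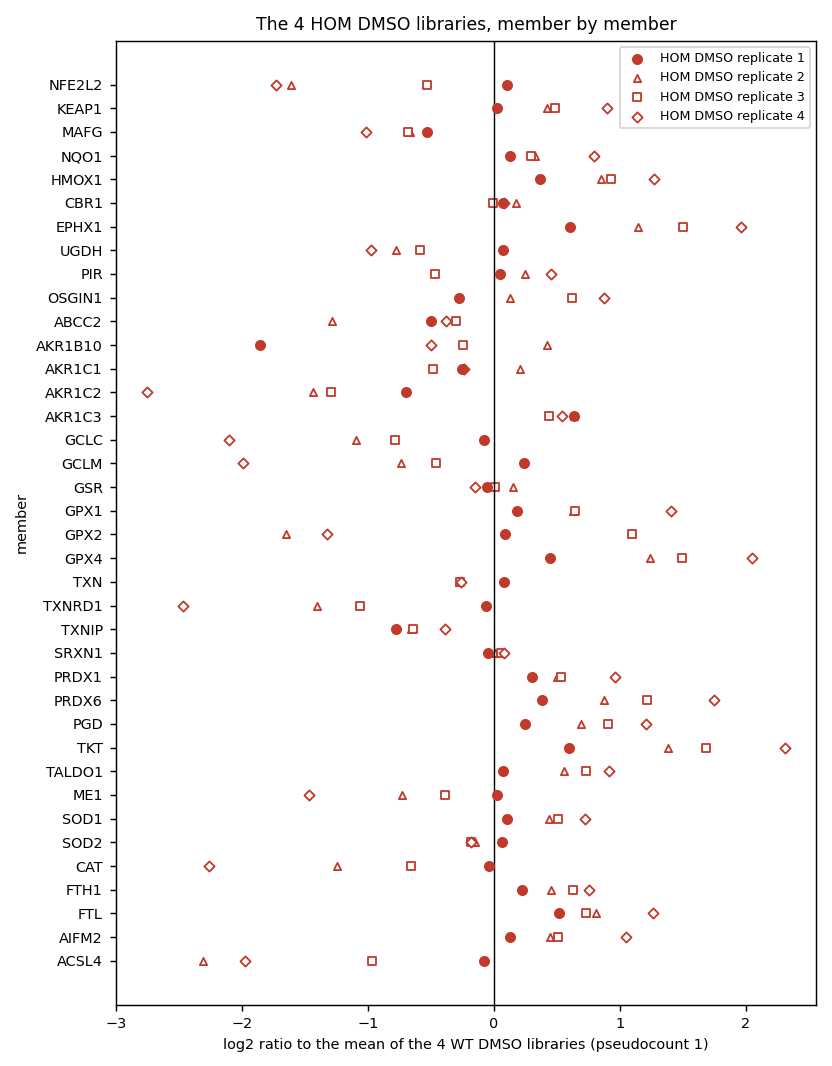
log2 ratio of each HOM DMSO library to the mean of the 4 WT DMSO libraries (pseudocount 1) for each member, with replicate 1 as filled circles and replicates 2, 3 and 4 as open symbols. Replicate 1 lies near 0 for most members, while the open symbols reach 2.31 for TKT, -2.47 for TXNRD1 and -2.75 for AKR1C2, which has few counts.

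Other genes of the NRF2 and antioxidant pathway were followed as a list of 52 genes, of which 51 were tested. With etoposide, 10 rose and 4 fell in KO (27.5% of those tested, beside 32.6% of all genes), 6 rose and 7 fell in HET (25.5%, beside 30.2%), and 8 rose and 9 fell in WT (33.3%, beside 35.0%). SLC7A11, the cystine importer that feeds glutathione synthesis, fell in KO (-1.12), HET (-1.19) and WT (-1.42). GCH1, which starts the synthesis of tetrahydrobiopterin, rose in KO (2.45), HET (2.41) and WT (3.42). MAFF, another small MAF, rose in KO (2.87), HET (2.19) and WT (2.31). The sestrin SESN1, a known p53 target, rose in KO (0.87), HET (2.17) and WT (2.71), while SESN3 fell in KO (-1.16), HET (-1.22) and WT (-0.60). SESN1 and SESN2 were lower in KO than in WT with etoposide, with 142 against 854 normalized counts (-2.59 ± 0.25 (SE), adjusted p = 1.3e-09) and 564 against 1872 (-1.73 ± 0.17 (SE), adjusted p = 1.2e-09). In that comparison 7 genes were higher and 7 lower (27.5%, beside 26.7% of all genes), the largest rises being those of MGST1, a microsomal glutathione transferase (1.77), and CBR3, a carbonyl reductase (1.64). The other comparisons that use no HOM DMSO library gave 2 higher and 6 lower for KO against WT in DMSO (15.7%, beside 8.35% of all genes) and 6 and 7 for HET against WT in DMSO (25.5%, beside 32.5%). With etoposide they gave 3 and 7 for HET against WT (19.6%, beside 23.3%), 11 and 10 for HOM against WT (41.2%, beside 28.6%) and 5 and 3 for HOM against KO (15.7%, beside 12.1%). The response differences gave 4 and 5 for KO against WT (17.6%, beside 15.2%) and 0 and 1, GCH1, for HET against WT (1.96%, beside 4.75%). Comparisons with HOM DMSO are not given for this list. ABCC1, an exporter of glutathione conjugates, was lower in HET than in WT with etoposide (14.1 against 93.97; -2.90 ± 0.74 (SE), adjusted p = 0.0029) and also in DMSO (8.53 against 79.5; -3.07 ± 0.74 (SE), adjusted p = 0.0013). In HOM etoposide it had 1.58, 2.43, 0 and 17.9 counts, against 114, 108, 81.00 and 72.3 in WT etoposide, a call for which no fold is given because 3 of the HOM libraries held at most 2.43 normalized counts. The HOM DMSO libraries had 18.9, 19.4, 26.3 and 0, against 71.5, 61.1, 61.8 and 124 in WT DMSO.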

How the data were processed

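RNA of U2OS cells, prepared with a poly-A protocol per the labels, was sequenced in 32 libraries. Kallisto and DESeq2 are the tools named in the submitters' processing notes, without versions. The expression matrix that the authors deposited is variance-stabilized and log2-like. The authors' 6 deposited result tables, per the file headers, give a mean signal of normalized counts, a log2 fold change, a test score (the Wald statistic) and a raw and adjusted p-value for each gene.

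The matrix was inverted to normalized counts. Their mean equalled the deposited mean signal, and undoing the library scaling gave whole counts within 0.01 in 100% of values in every library. The deposited values are not raw counts, so limma 3.58.1 (R 4.3.3) was used, with a moderated two-sided test and a trend on log2(normalized count + 1), 1 mean per group over all 32 libraries and 16 contrasts. The filter kept 16824 genes that reached 10 normalized counts in 4 or more libraries. Log2 fold changes on this scale understate those of low genes. The SE rests on 1 spread per gene over all groups, the uneven HOM DMSO libraries included. P-values were Benjamini-Hochberg adjusted within each contrast, and calls needed 0.05 and 1.5-fold. The code was tested on simulated data. No pair of replicates was a duplicate (chi-square per degree of freedom 1.85 to 236).

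Values per library are given for NFE2L2, KEAP1, NQO1, HMOX1, TXNIP and AIFM2, and for up to 4 rises and 4 falls per contrast among members with a mean of at least 50 normalized counts in 1 group (3 each for response differences). The members and lists were chosen with earlier results of these data known. Gene coordinates are from GENCODE release 29 (GRCh38) and promoter sequences from RefSeq (GRCh38.p14). Alternatives were a pseudocount of 5, no filter, the variance-stabilized values, total-count scaling, the compared groups alone, array weights, voom weights, a replicate block, no fold minimum and each library left out. A check of the labels on 1 gene is not reported here.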

Additional observations from a re-analysis of the deposited data

Results flagged for a closer look

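Within a group, 1 library stood far from the other 3 in 16 of 304 combinations of member and group, by a test of the gap to the nearest library against the range; chance alone gives about 1 in 20. All values are normalized counts. In KO etoposide this was MAFG in replicate 3 (2363, against 2651 to 2693 in the other 3), CAT in replicate 2 (1091, against 1057 to 1063 in the other 3) and ACSL4 in replicate 1 (395, against 360.4 to 365 in the other 3). In HET DMSO this was GPX1 in replicate 3 (7080.4, against 5468 to 5506 in the other 3) and TALDO1 in replicate 3 (2546, against 2062 to 2092 in the other 3). In HOM etoposide this was ABCC2 in replicate 4 (40.8, against 33.7 to 34.8 in the other 3), FTH1 in replicate 4 (50826, against 44648 to 45545 in the other 3) and AIFM2 in replicate 2 (1178, against 1116 to 1126 in the other 3). In HOM DMSO this was TXN in replicate 1 (1049, against 822 to 828 in the other 3) and SOD2 in replicate 1 (945, against 799 to 817 in the other 3). In WT etoposide this was NQO1 in replicate 4 (2504, against 2657 to 2683 in the other 3) and ABCC2 in replicate 1 (33.6, against 43.1 to 44.4 in the other 3). In WT DMSO this was CBR1 in replicate 3 (819.7, against 553 to 586 in the other 3), TXNIP in replicate 3 (250.1, against 165 to 173 in the other 3), PRDX1 in replicate 3 (9265, against 6159 to 6405 in the other 3) and PGD in replicate 2 (6399.9, against 7147 to 7243 in the other 3).

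The etoposide response differed between genotypes past the threshold, in the test of the difference itself, in 45 cases, each given as the difference of log2 fold changes. Of the members, 7.89% passed for KO minus WT, beside 15.2% of all genes, and 5.26% for HET minus WT, beside 4.75%. For HOM minus WT 50% passed, beside 50.2%, and for HOM minus KO 55.3%, beside 43.7%. Both HOM shares include the outlying HOM DMSO libraries. The number of cases is therefore not read as a trait of the members. For KO minus WT the cases were PIR (1.05), AKR1B10 (-3.21) and GPX1 (-1.29). For HET minus WT they were TXNIP (-2.41) and SOD2 (-1.21).

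For HOM minus WT, with all 4 DMSO libraries of HOM, the differences were NFE2L2 (1.11), HMOX1 (-0.66), EPHX1 (-0.72), UGDH (0.90), PIR (0.86), AKR1B10 (-1.98), AKR1C1 (1.07), AKR1C2 (1.88), AKR1C3 (0.97), GCLC (1.46), GCLM (0.93), GPX1 (-1.94), GPX4 (-1.03), TXNRD1 (1.11), PRDX6 (-0.94), TKT (-1.49), CAT (1.43), FTH1 (-0.83) and AIFM2 (-0.75). With DMSO replicate 1 alone, PIR, AKR1C3, GPX1 and TKT still passed, TKT at the edge of the threshold. For HOM minus KO they were NFE2L2 (1.01), EPHX1 (-0.80), UGDH (0.71), AKR1B10 (1.23), AKR1C1 (1.53), AKR1C2 (2.96), AKR1C3 (0.59), GCLC (1.09), GCLM (0.94), GPX1 (-0.65), GPX4 (-1.33), TXNRD1 (1.36), PRDX6 (-0.81), PGD (-0.80), TKT (-1.30), TALDO1 (-0.71), ME1 (0.75), CAT (1.17), FTH1 (-0.81), FTL (-0.69) and ACSL4 (1.18). With DMSO replicate 1 alone, AKR1B10 still passed, on 1 count in that library. The share of mtDNA-encoded genes was 20.68% to 21.92% in libraries 2 to 4 of HOM DMSO, higher than in replicate 1. Its part in the differences of both sets was not tested.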

How the results depend on the processing

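Counts of members past the threshold stayed within 1.5 times of the reported ones with a pseudocount of 5, without the filter, with the deposited variance-stabilized values, with total-count scaling and with voom weights. Without the fold minimum they were 16 for KO against WT with etoposide, 27 for the HET response, 14 for HET against WT in DMSO and 11 with etoposide, 14 for HOM against WT and 6 for HOM against KO with etoposide, and 25 for the WT response, since smaller changes then counted. All genes were not counted without the fold minimum, so these numbers are not read as a trait of the members. With array weights, the response difference of KO and WT held 5 members, and 3584 of all genes in place of 2563. On the compared groups alone, HOM against WT in DMSO gave 6 members, and 1159 of all genes in place of 8012, and the response difference of HOM and KO gave 12 members, and 4691 of all genes in place of 7344. Without libraries 2 to 4 of HOM DMSO, the HOM response gave 15, HOM against WT in DMSO 4, HOM against KO in DMSO 6, and the response differences of HOM gave 4 against WT and 1 against KO; the cause was not tested.

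Leaving out 1 library at a time gave ranges of 10 to 12 for the KO response, 11 to 14 for HET, 23 to 25 for HOM and 13 to 15 for WT. In DMSO the ranges were 4 to 5 for KO, 6 to 9 for HET and 17 to 24 for HOM, each against WT, and 18 to 23 for HOM against KO. With etoposide they were 8 to 10 for KO, 4 to 5 for HET and 5 to 7 for HOM, each against WT, and 2 to 3 for HOM against KO. For response differences against WT they were 3 to 4 for KO, 2 to 3 for HET and 14 to 24 for HOM, and for HOM against KO they were 10 to 24, the 10 being without replicate 4 of HOM DMSO. All genes were not counted in these fits, so the ranges show only how far the members' counts moved.

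Under total-count scaling the log2 change turned to positive in the HOM response for NQO1 (0.42), EPHX1 (0.075), PIR (0.084), PGD (0.014) and FTL (0.15), in the response difference of HOM and WT for HMOX1 (0.13), EPHX1 (0.062) and AIFM2 (0.038), and in that of HOM and KO for GPX1 (0.055) and FTL (0.012). Without libraries 2 to 4 of HOM DMSO the sign turned, among members past the threshold with all 4, for NFE2L2 (0.14), GCLM (0.25), ME1 (0.028) and ACSL4 (0.014) in HOM against WT in DMSO, for CAT (0.10) in HOM against KO in DMSO, for GCLM (-0.051) and TXNRD1 (-0.071) in the response difference of HOM and WT, and for NFE2L2 (-0.039), GCLM (-0.034) and ACSL4 (-0.070) in that of HOM and KO. The cause was not tested.

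Same-numbered replicates do not share a source in the labels, and their deviations did not correlate over 0.1 in every pair of any comparison. With the replicate block, counts of members were 14 in WT, 12 in KO, 13 in HET and 24 in HOM, as without it. They were 22 in place of 21 for HOM against KO in DMSO, and 7 in place of 5 for HET against WT with etoposide. Of all genes, 5917 passed with the block in WT, 5506 in KO, 5094 in HET and 11049 in HOM. For HOM against KO in DMSO 8604 of all genes passed, and for HET against WT with etoposide 3945.

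Depth limits AKR1B10, AKR1C1, AKR1C2, ABCC2 and GPX2 most, which had group means under 20 normalized counts in DMSO in most genotypes.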
